A study of Mus musculus with 3 samples.

Results

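Ccl3, Ccl4, Ccl5 and Ccr1 were followed across the cell classes of 3 single-cell RNA libraries of mouse tumours. These 3 chemokines and 1 receptor are 4 of the 32285 genes in the count matrices and were found there by their symbols. The tumour cells were LLC1-sgLkb1, a Lewis lung carcinoma line with a knockdown of the tumour suppressor kinase LKB1, in all 3 groups. They were injected into the tail vein, to seed the lung, and later subcutaneously, and it was the subcutaneous tumour that received radiation. The library labelled CKO+RI came from Sfrp2ΔCol1a2 hosts, whose name points to a deletion of Sfrp2 under the Col1a2 promoter, and received radiation plus an immune checkpoint inhibitor. Flox+RI had Sfrp2fl/fl hosts and the same pair of treatments, and Flox+ICI had Sfrp2fl/fl hosts given the immune checkpoint inhibitor alone. The labels give the tissue as tumour, name no lesion, age or sex, and do not say how many animals were pooled.

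CCL3, CCL4 and CCL5 are small secreted proteins that draw monocytes, T cells and natural killer (NK) cells along a gradient. Activated macrophages, neutrophils and effector lymphocytes release Ccl3 and Ccl4 quickly after a stimulus, whereas Ccl5 is made late in T cell activation and is held at high levels by cytotoxic lymphocytes. Ccr1 is a G protein-coupled receptor for CCL3 and CCL5 and, in the mouse, sits mainly on neutrophils, monocytes and macrophages. In tumours these molecules are known both for bringing in effector cells and for bringing in myeloid cells.

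The 3 ligand genes lie close together on GRCm38 chromosome 11. Ccl5 (ENSMUSG00000035042) spans 83525778 to 83530518 on the minus strand, Ccl3 (ENSMUSG00000000982) 83647844 to 83649355 on the minus strand and Ccl4 (ENSMUSG00000018930) 83662584 to 83664683 on the plus strand, each with 3 exons. Ccr1 (ENSMUSG00000025804) spans 123962124 to 123968692 on the minus strand of chromosome 9 and has 2 exons. No other annotated gene overlaps any of them. Ccl3 and Ccl4 are 13228 bases apart. They are paralogs, and the counting of reads that match more than 1 gene was not examined here.

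Each group was 1 library, so differences could not be checked against replicates and groups were not tested. Before filtering there were 9300 barcodes and 161250286 UMIs, each standing for 1 transcript molecule, for the library labelled CKO+RI, 13340 and 101840883 for Flox+RI, and 10842 and 75543561 for Flox+ICI. After filtering, 8383, 11706 and 9777 cells remained, whose median depths were 13515, 2599 and 3011 UMIs, and each pair of libraries shared 31 to 37 barcodes. Sfrp2 is the targeted gene, and the library labelled CKO+RI held the most of it, with 42 UMIs over all kept cells, against 8 in Flox+RI and 6 in Flox+ICI. In that library 31 of them lay in 26 cells of the mesothelial gate, and the fibroblast gate held 1 UMI in 112 cells, against 1 in 38 for Flox+RI and 3 in 173 for Flox+ICI. Which part of the gene is deleted is not given, and 3' tags outside that part check nothing, so no difference is read as an effect of the genotype.

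Cells were assigned to classes by a gate on marker genes, and a cell that met no gate stayed ungated. Levels are UMIs of a gene per 1000000 UMIs of the class (CPM) and are compared between libraries and classes, not between genes. By the median of all genes, log2 ratios were shifted by -0.29 over all kept cells and 0.35 in neutrophils for Flox+RI over Flox+ICI, and by -0.17 in neutrophils and 0.11 in macrophages for the library labelled CKO+RI over Flox+RI. Intervals in parentheses are exact at 95% and reflect counting error alone. The macrophage, neutrophil, classical monocyte and T cell gates each held UMIs of every marker of their own list in all 3 libraries. Summed markers were 30563, 30183 and 41563 CPM for the macrophage gate and 145041, 61032 and 161408 CPM for the neutrophil gate in the library labelled CKO+RI, Flox+RI and Flox+ICI.

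The main gated sources of Ccl3 and Ccl4 were macrophages and T cells in the library labelled CKO+RI, and macrophages and neutrophils in the Flox libraries. In Flox+RI ungated cells held more of both genes than any gated class. In the library labelled CKO+RI macrophage-gated cells held 42.5% of the Ccl3 UMIs, T cells 22.9% and neutrophils 10.3%. In Flox+RI the same classes held 12.2%, 0.304% and 9.05% of Ccl3, and ungated cells held 68.5%. In Flox+ICI they held 26.7%, 3.86% and 27.6%, and ungated cells 25.5%. Ccl4 was divided in a like way. Macrophages held 46.9%, 23.0% and 17.7% of the Ccl4 UMIs in the library labelled CKO+RI, Flox+RI and Flox+ICI. T cells held 27.4%, 1.17% and 8.50% of them, and neutrophils 5.61%, 9.36% and 39.6%. Tumour-gated cells, low in level but many, held 7.34%, 8.87% and 4.32% of the Ccl4 UMIs and 8.30%, 7.80% and 4.39% of the Ccl3 UMIs. The library labelled CKO+RI was thus the one in which T cells stood out as a source of both genes, and Flox+ICI the one in which neutrophils led the gated classes for Ccl4.

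T cells were the leading gated source of Ccl5 in every library. They held 50.3%, 35.7% and 37.4% of its UMIs in the library labelled CKO+RI, Flox+RI and Flox+ICI, and NK cells 12.9%, 4.32% and 17.4%. Macrophages added 5.80%, 14.7% and 7.54%, tumour-gated cells 9.97%, 11.9% and 4.68%, and ungated cells 11.6%, 25.5% and 28.6%. Ccr1 UMIs lay mostly in the myeloid gates. Macrophages held 45.0%, 42.4% and 33.1% of them, neutrophils 33.3%, 23.3% and 38.4%, and classical monocytes 4.81%, 3.91% and 14.8%. Ungated cells held 7.71%, 25.7% and 9.44% of them, and tumour-gated cells 5.50%, 3.13% and 1.39%. T cells held 0.753%, 0.481% and 0.433% of the Ccr1 UMIs, and NK cells had none in any library.

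**Figure D1:**
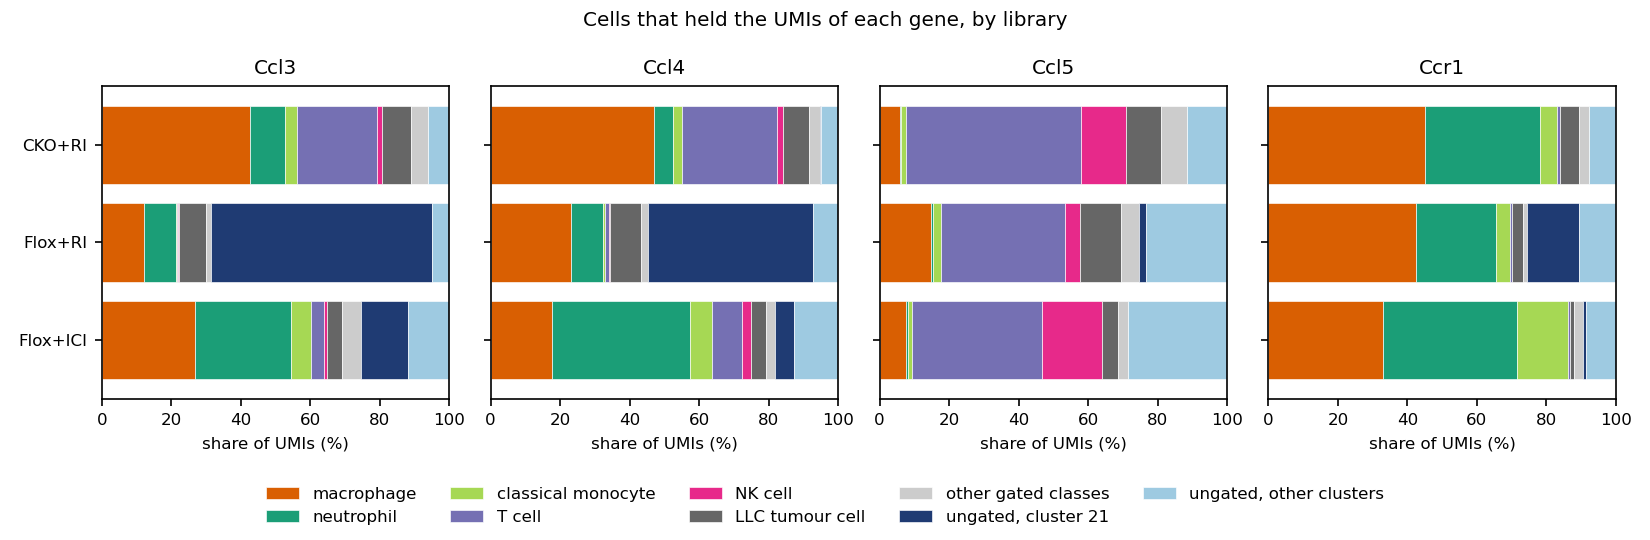
Share of the UMIs of each gene (%, horizontal axis) that lay in each class of cells, for the library labelled CKO+RI at the top, Flox+RI in the middle and Flox+ICI at the bottom. In Flox+RI ungated cells of 1 cluster, cluster 21, held 63.4% of Ccl3 and 47.5% of Ccl4, whereas T cells led the gated classes for Ccl5 in each library, and macrophages and neutrophils together held most of Ccr1.

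Ungated Ccl3 in Flox+RI lay mostly in 1 cluster of cells with few UMIs. Clusters were made without CC chemokine and receptor genes. Cluster 21 took 4 cells from the library labelled CKO+RI, 2612 from Flox+RI and 44 from Flox+ICI, with a median of 830 UMIs per cell, and its leading genes were Ccl3, Ccrl2, Tnf, Basp1 and F10. In Flox+RI its Ccl3 level was 3958 CPM (3876 to 4040) and its Ccl4 level 813 CPM (777 to 851). It held 70.1% of the Ccl3, 52.9% of the Ccl4 and 17.5% of the Ccr1 UMIs of that library. The 44 cells of Flox+ICI had 7562 CPM of Ccl3 and 2653 CPM of Ccl4, and held 18.7% of the Ccl3 UMIs there. A cluster almost wholly of 1 library may be that library and not a type of cell. Its class was not clear from the markers. All 12 neutrophil and all 12 macrophage markers had UMIs in the Flox+RI cells, and their sums were 4638 and 3198 CPM, against 61032 and 1366 CPM in the neutrophil gate of the same library. S100a8, a neutrophil granule protein, was at 2343 CPM, the macrophage glycoprotein Gpnmb at 1235 CPM and the complement subunit C1qa at 84.6 CPM. The naming rule gave it the neutrophil name through 1 leading marker, the lectin Clec4d, and the cluster is therefore called by its number.

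Over all kept cells, Ccl3 was lower in the library labelled CKO+RI than in Flox+RI and higher in Flox+RI than in Flox+ICI, and both differences were smaller without cluster 21. The Ccl3 level was 27.1 CPM in the library labelled CKO+RI, 148 CPM in Flox+RI and 23.3 CPM in Flox+ICI. Its ratio was 0.184 (0.177 to 0.190) for the library labelled CKO+RI over Flox+RI. For Flox+RI over Flox+ICI it was 6.36, and the 2 comparisons share Flox+RI. Without cluster 21, an alternative added after the data were seen, the Ccl3 levels were 27.0, 45.4 and 18.9 CPM and the ratios 0.595 and 2.40. For Ccl4 the order itself turned. Its levels were 32.0, 40.2 and 21.1 CPM over all kept cells and 31.9, 19.5 and 19.6 CPM without cluster 21, so the ratio of the library labelled CKO+RI over Flox+RI was 1.64 in place of 0.795, and that of Flox+RI over Flox+ICI 0.992 in place of 1.90.

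Ccl5 and Ccr1 depended less on that cluster. Ccl5 was at 142 CPM in the library labelled CKO+RI, 91.5 CPM in Flox+RI and 208 CPM in Flox+ICI, with ratios of 1.56 and 0.440 that became 1.55 and 0.440 without cluster 21. Ccr1 was at 12.0, 19.2 and 17.6 CPM, with ratios of 0.624 and 1.09. Without cluster 21 the Ccr1 ratios were 0.736 and 0.935, so that of Flox+RI over Flox+ICI changed its direction. By a 2-fold rule, 0 of the 4 genes were higher and 1 was lower in the library labelled CKO+RI than in Flox+RI, where 5.29% of 18887 genes were higher and 11.9% lower. In the other comparison, Flox+RI over Flox+ICI, 1 was higher and 1 lower, where 2.47% of 18737 genes were higher and 14.6% lower.

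Macrophages of the library labelled CKO+RI had higher levels of all 4 genes than those of Flox+RI. For Ccl3 this held only with cells weighted by their UMIs, and for Ccl5 most UMIs lay in 1 cluster, cluster 19. The macrophage gate took 588 cells from the library labelled CKO+RI, 1604 from Flox+RI and 871 from Flox+ICI. Ccl4 stood at 434 CPM (416 to 453), 112 CPM (104 to 120) and 50.5 CPM (44.4 to 57.3). No intervals of the Ccl4 levels overlapped, and the ratio was 3.88 (3.58 to 4.22) for the library labelled CKO+RI over Flox+RI and 2.21 for Flox+RI over Flox+ICI. Ccl3 was at 334, 217 and 84.2 CPM, with ratios of 1.54 (1.43 to 1.65) and 2.58. The Ccl3 ratio of the library labelled CKO+RI over Flox+RI was 0.940 with every cell given the same weight and 1.02 with a looser gate. Ccl5 stood at 239, 162 and 212 CPM (ratios 1.47 and 0.764) and Ccr1 at 156, 97.9 and 78.8 CPM (ratios 1.59 and 1.24). By the 2-fold rule 1 of the 4 genes, Ccl4, was higher and none lower in the library labelled CKO+RI than in Flox+RI, where 6.53% of genes were higher and 8.7% lower. Between Flox+RI and Flox+ICI 2 were higher in Flox+RI and none lower, where 3.53% were higher and 3.54% lower.

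Different clusters made up the macrophage gate in each library. In the library labelled CKO+RI 244 of its cells lay in cluster 18, led by Pf4, Mrc1 and C1qa. In Flox+RI 826 lay in cluster 31, led by Saa3, Arg1 and Hmox1, and in Flox+ICI 471 lay in cluster 20, led by Gpnmb, Apoe and Ctss. Within cluster 18, which had at least 77 cells of each library, Ccl4 was at 696, 151 and 85.2 CPM and Ccl3 at 542, 211 and 56.1 CPM. Both genes kept their order within that cluster, but Ccl5, at 104 CPM in the library labelled CKO+RI, against 98.5 CPM in Flox+RI, had a ratio of 1.06 (0.887 to 1.27) there. In cluster 20 the Ccl5 ratio was 1.46 (0.904 to 2.38), and the Ccr1 ratios were 1.23 in cluster 18 and 1.68 in cluster 20. In cluster 20 Ccl3 was instead at 176, 211 and 119 CPM, the intervals of the library labelled CKO+RI (145 to 212) and of Flox+RI (175 to 252) overlapping, and Ccl4 at 81.6, 73.9 and 40.0 CPM. Cluster 19, led by MHC class II genes, had 155 cells from the library labelled CKO+RI and 271 from Flox+ICI, with Ccl5 at 799 and 429 CPM and Ccl4 at 348 and 71.7 CPM.

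In neutrophils Ccl3 was lower, not higher, in the library labelled CKO+RI than in Flox+RI. The neutrophil gate took 602 cells from the library labelled CKO+RI, 1411 from Flox+RI and 1581 from Flox+ICI, and Ccl3 stood at 330 CPM (298 to 363), 1003 CPM (947 to 1063) and 225 CPM (204 to 247). The Ccl3 ratio was 0.328 (0.292 to 0.368) for the library labelled CKO+RI over Flox+RI and 4.46 for Flox+RI over Flox+ICI. Cells of cluster 21, 156 of the 1411 gated cells of Flox+RI, held 43.0% of its Ccl3 UMIs there. Without cluster 21, Ccl3 of the gate was at 314, 652 and 194 CPM, with ratios of 0.482 (0.424 to 0.547) and 3.37. With clusters as classes the Ccl3 ratio of the library labelled CKO+RI over Flox+RI was 0.138 with cluster 21 counted as neutrophils and 0.521 without it. Ccl4 differed less, at 212, 283 and 293 CPM, with ratios of 0.751 (0.636 to 0.887) and 0.964 (0.838 to 1.11), but without cluster 21 the Ccl4 ratios were 1.03 (0.850 to 1.24) and 0.721 (0.611 to 0.849). Ccr1 was at 471, 334 and 236 CPM (ratios 1.41 and 1.42), and Ccl5 at 75.4, 40.6 and 52.8 CPM (ratios 1.86 and 0.770). The Ccr1 ratio of the library labelled CKO+RI over Flox+RI was 0.952 when doublets were kept, and that of Flox+RI over Flox+ICI was 0.866 with clusters as classes if cluster 21 was counted as neutrophils and 1.52 if it was left out. Of the 4 genes, 1 was lower by 2-fold in the library labelled CKO+RI than in Flox+RI (10.9% of genes) and none higher (5.1%). In Flox+RI over Flox+ICI 1 was higher, as were 17.6% of genes, and none was lower (4.6%).

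The neutrophil gate also mixed 2 clusters in unequal parts. Cluster 10, led by S100a9, Retnlg and S100a8, took 431 gated cells from the library labelled CKO+RI, 282 from Flox+RI and 1365 from Flox+ICI. Cluster 11, led by Il1b and the decoy receptor Il1r2, held 104, 967 and 196. Within cluster 11 Ccl3 was higher in the library labelled CKO+RI, at 1805 CPM (1616 to 2009), than in Flox+RI, at 906 CPM (845 to 971), and stood at 1350 CPM (1191 to 1525) in Flox+ICI. Ccl4 in the same cluster was at 1135, 262 and 1293 CPM and Ccr1 at 902, 368 and 348 CPM. Within cluster 10 Ccl3 was at 125, 151 and 84.8 CPM. The order of Ccl3 in the whole gate was thus reversed within cluster 11, and within cluster 10 the intervals of the library labelled CKO+RI (103 to 150) and Flox+RI (108 to 206) overlapped. Cluster 21 gave a further 3 gated cells to the library labelled CKO+RI, 156 to Flox+RI and 14 to Flox+ICI.

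**Figure D2:**
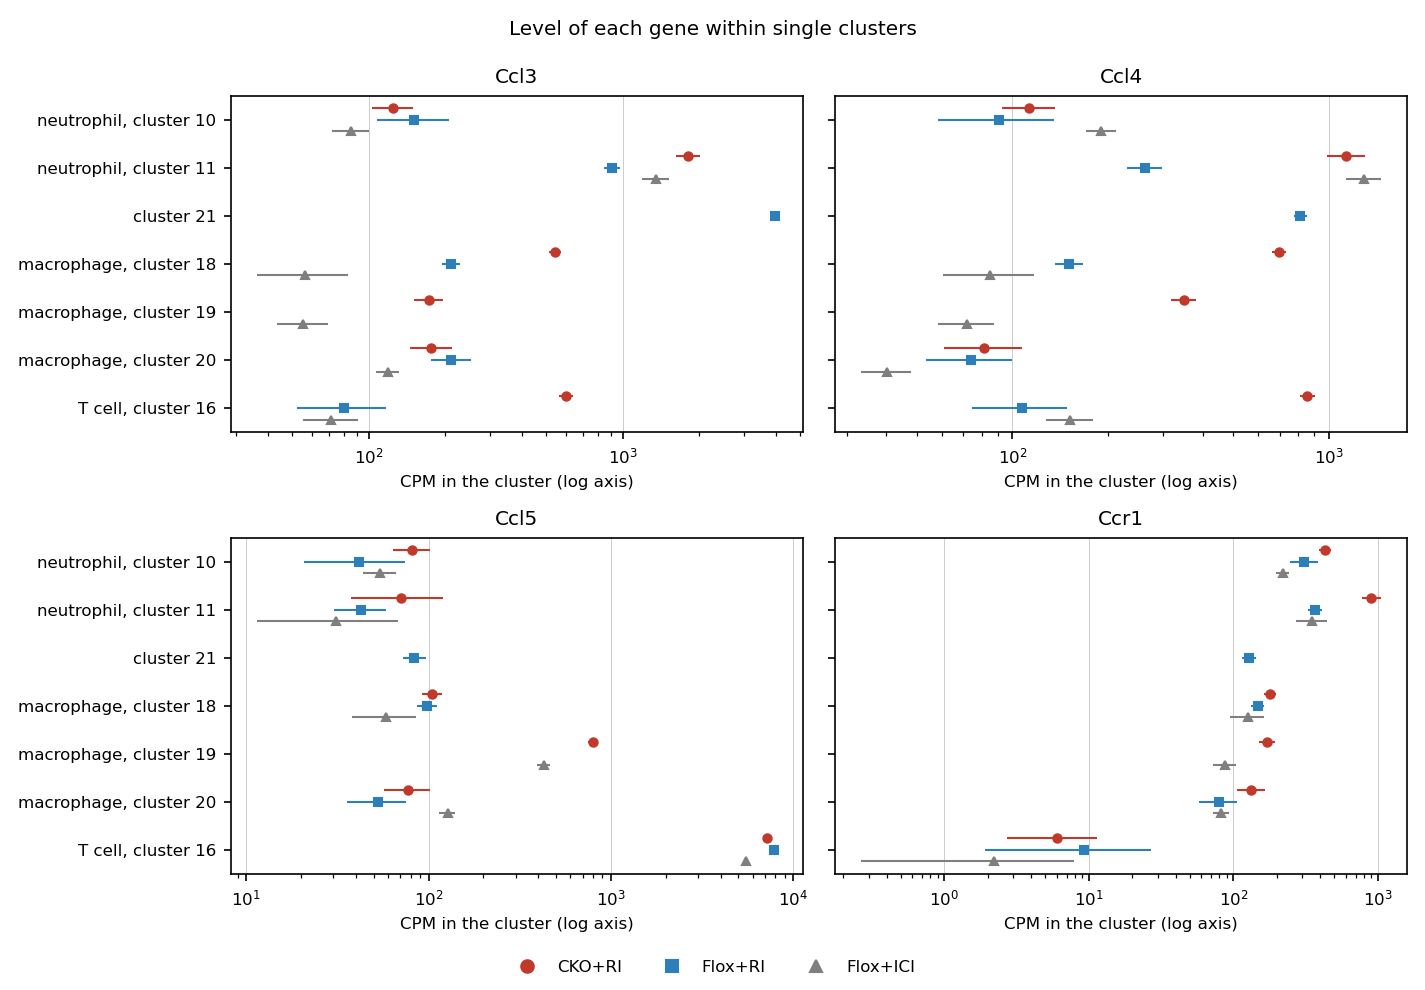
Level of each gene (CPM, log axis) within single clusters, with exact 95% Poisson intervals as bars. Points are the library labelled CKO+RI, Flox+RI and Flox+ICI from top to bottom in each row, and clusters with few cells of a library have no point for it. In cluster 11 Ccl3 was at 1805, 906 and 1350 CPM, and in cluster 18 at 542, 211 and 56.1 CPM.

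T cells, CD8 T cells among them, had the highest ratios of Ccl3 and Ccl4 of the gated classes for the library labelled CKO+RI over Flox+RI. The CD8 gate, T cells with Cd8a or Cd8b1 and no Cd4 or Foxp3, held 223, 131 and 241 cells. Ccl3 had 815 UMIs in the library labelled CKO+RI (830 CPM, 774 to 889), 17 in Flox+RI (75.5 CPM, 44.0 to 121) and 55 in Flox+ICI (82.4 CPM, 62.1 to 107). Ccl4 had 1142, 18 and 104 UMIs, or 1163 CPM (1096 to 1232), 79.9 CPM (47.3 to 126) and 156 CPM (127 to 189). For both genes the library labelled CKO+RI stood apart from the Flox libraries. Its ratio over Flox+RI was 11 (6.83 to 19) for Ccl3 and 14.6 (9.17 to 24.7) for Ccl4, and the ratios of Flox+RI over Flox+ICI were 0.915 (0.498 to 1.60) and 0.513. A few cells weighed heavily. The top 1% of cells held 29.6% of the Ccl3 UMIs of that gate in the library labelled CKO+RI, and 1 cell held 147. With every cell given the same weight the ratios were 7.27 for Ccl3 and 8.80 for Ccl4, and with doublets kept that of Ccl3 was 5.13.

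Shares of cells with a UMI were likewise highest in the library labelled CKO+RI. The thinned shares of Flox+RI and Flox+ICI rested on 5 and 8 cells with Ccl4 and on 4 and 3 with Ccl3, so their order is not read. In cells thinned to 500 UMIs, Ccl4 was found in 19.3% of CD8 T cells from the library labelled CKO+RI, 3.82% of those from Flox+RI and 3.32% of those from Flox+ICI, and without thinning in 50.2%, 13% and 13.3%. Ccl3 was found in 12.1%, 3.05% and 1.24% of the thinned CD8 T cells. In tumour-gated cells, taken as cells that should lack these genes, the thinned shares were 0.149%, 1.01% and 0.0919% for Ccl3 and 0.298%, 0.208% and 0.0919% for Ccl4. Median UMIs per cell before thinning were 3423, 1594 and 2116 in the CD8 T cells and 27274, 16866 and 15447 in the tumour-gated cells. In the whole T cell gate the ratios of the library labelled CKO+RI over Flox+RI were 11.4 (8.28 to 16.1) for Ccl3 and 15.3 (11.2 to 21.4) for Ccl4. Cluster 16, which held 358, 149 and 308 of the gated T cells, gave 599, 79.6 and 71.2 CPM of Ccl3 and 855, 107 and 152 CPM of Ccl4. In CD8 T cells 2 of 3 measured genes were higher by 2-fold and none lower in the library labelled CKO+RI than in Flox+RI, where 10.9% of genes were higher and 6.8% lower. None of the 3 was, for Flox+RI over Flox+ICI, past 2-fold (3.64% of genes higher, 9.88% lower).

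Ccl5 was nearly as high in the CD8 T cells of Flox+RI as in those of the library labelled CKO+RI. It stood at 8584 CPM (8401 to 8769) in the library labelled CKO+RI, 7075 CPM (6732 to 7431) in Flox+RI and 4613 CPM (4452 to 4779) in Flox+ICI, and was found in 82.5%, 74.8% and 66.0% of thinned cells, against 0.633%, 2.13% and 2.20% of thinned alveolar type 2 cells. The ratio was 1.21 (1.15 to 1.28) for the library labelled CKO+RI over Flox+RI, and 0.992 when doublets were kept. For Flox+RI over Flox+ICI it was 1.53. NK cells were higher still, with Ccl5 at 19246 CPM in 60 cells from the library labelled CKO+RI and 19810 CPM in 95 cells from Flox+ICI, and with intervals that overlapped (18521 to 19992, and 19022 to 20623). In the same NK cells Ccl4 was at 630 CPM (505 to 778) and 300 CPM (210 to 415), and Ccl3 at 413 CPM (313 to 535) and 108 CPM (57.7 to 185). Flox+RI had 15 NK cells, under the minimum of 50. CD4 T cells had Ccl5 at 1726 CPM in the library labelled CKO+RI (55 cells) and 729 CPM in Flox+ICI (90 cells). Ccr1 was scarce in all of these lymphocytes, with 4, 1 and 1 UMIs in the CD8 T cells of the library labelled CKO+RI, Flox+RI and Flox+ICI.

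**Figure D3:**
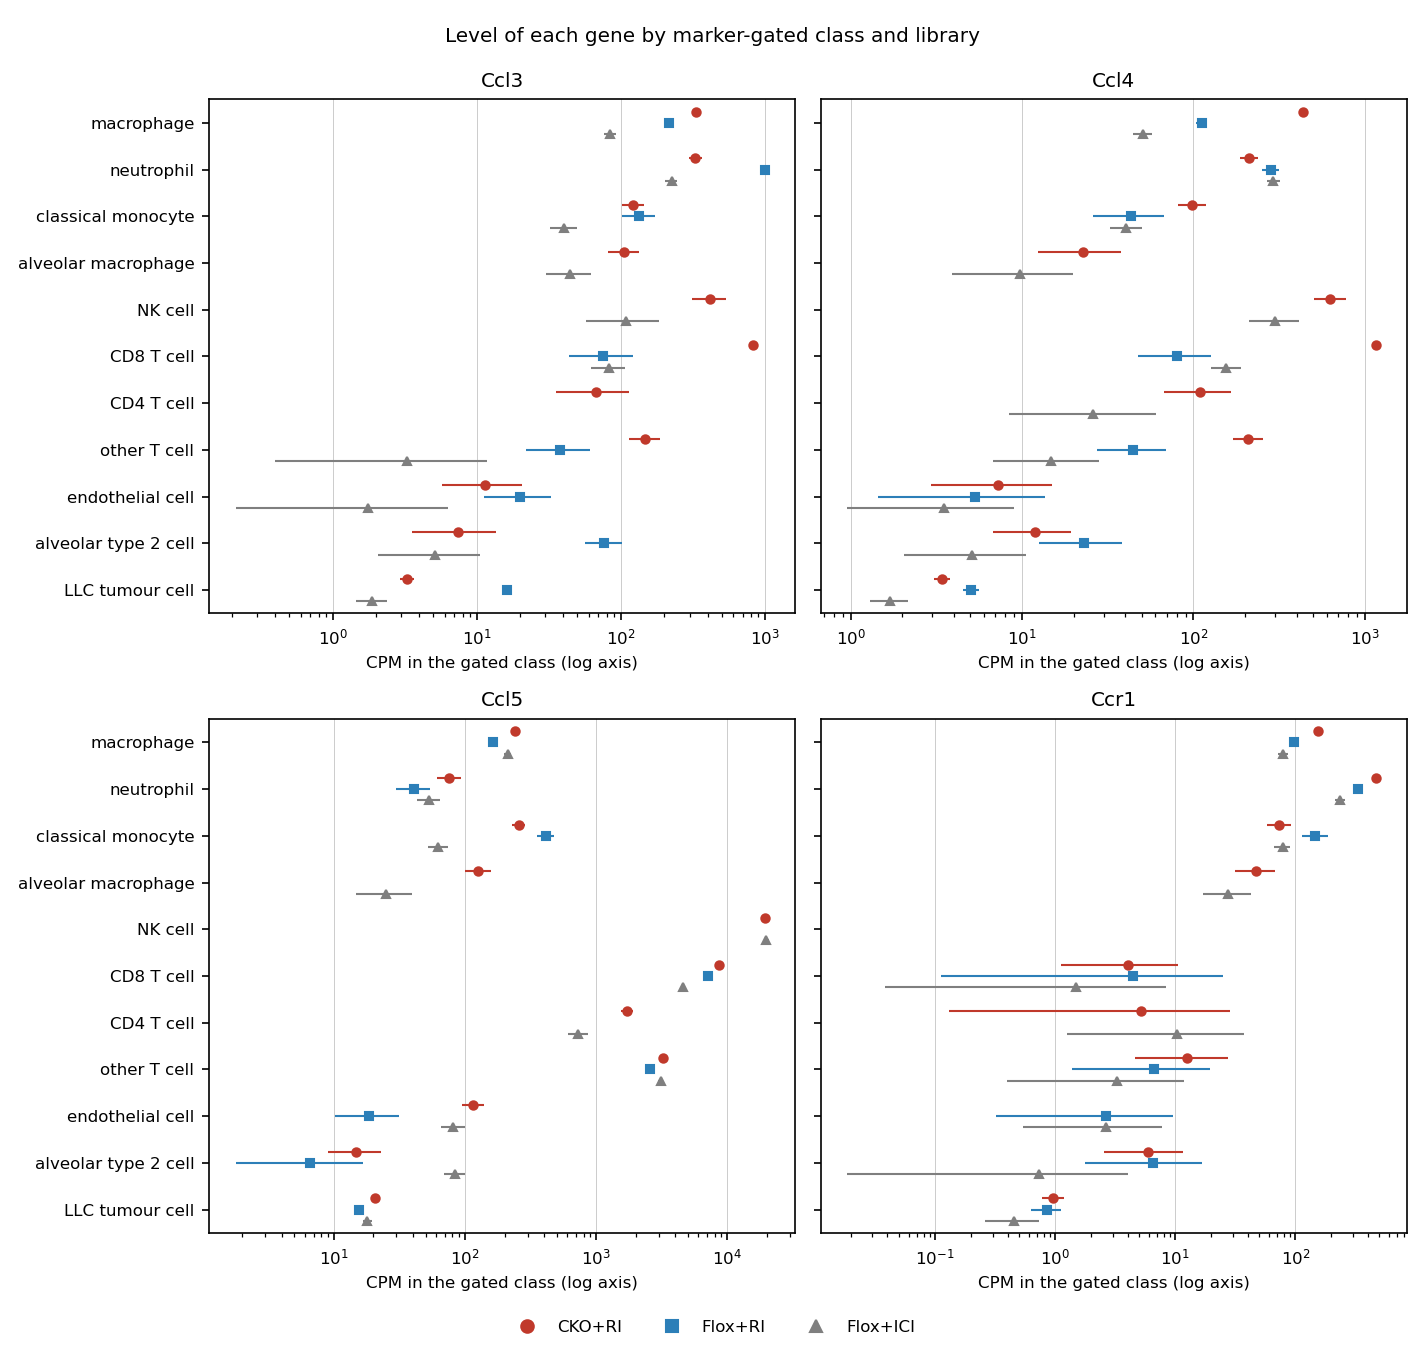
Level of each gene (CPM, log axis) by gated class in the library labelled CKO+RI, Flox+RI and Flox+ICI, with exact 95% Poisson intervals as bars, for classes with at least 50 cells and at least 1 UMI of the gene in the library. Ccl5 was highest in NK cells (19246 and 19810 CPM) and Ccr1 in neutrophils (471, 334 and 236 CPM), and Ccl4 of CD8 T cells stood at 1163, 79.9 and 156 CPM.

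Classical monocytes, which circulate in blood and enter inflamed tissue, differed from macrophages in their Ccl5 and Ccr1. The gate took 231 cells from the library labelled CKO+RI, 143 from Flox+RI and 700 from Flox+ICI. Ccl5 was at 257, 412 and 62.2 CPM, with ratios of 0.624 (0.517 to 0.755) and 6.62, but with clusters as classes the Ccl5 ratios were 1.08 and 0.964. Cells outside cluster 13 carried most of the Ccl5 UMIs of the library labelled CKO+RI, where they were few, and of Flox+RI. The 216 gated cells of cluster 13 held 20 of the 290 Ccl5 UMIs of the library labelled CKO+RI, and 2 cells of cluster 19 held 160. In Flox+RI cluster 13 held 2 of 182 Ccl5 UMIs, against 97 in cluster 31 and 63 in cluster 18, and in Flox+ICI it held 88 of 136. Within gated cells of cluster 13 Ccl5 was at 19.9 CPM (12.2 to 30.7), 14.5 CPM (1.76 to 52.4) and 42.7 CPM (34.3 to 52.7). Ccr1 was at 73.5, 147 and 78.2 CPM (ratios 0.500, just short of 2-fold lower, and 1.88). Ccl4 was at 98.3, 43.0 and 40.7 CPM, with ratios of 2.29 (1.40 to 3.94) and 1.06 (0.608 to 1.75), and Ccl3 at 122, 133 and 40.2 CPM, with ratios of 0.916 (0.671 to 1.26) and 3.32. Few cells also carried the Ccl4 level of the library labelled CKO+RI. There 1 cell of cluster 16 held 38 of 111 Ccl4 UMIs, and the 216 gated cells of cluster 13 held 38. Within gated cells of cluster 13 Ccl4 was at 37.8 CPM (26.8 to 51.9), 29.0 CPM (7.91 to 74.3) and 39.3 CPM (31.2 to 48.9). Gated monocytes of Flox+RI were spread over clusters 13, 31 and 18 (54, 45 and 34 cells), whereas 216 of 231 in the library labelled CKO+RI and 658 of 700 in Flox+ICI lay in cluster 13. Their summed macrophage markers were 2467, 6911 and 2668 CPM. The part of these markers in the Ccl5 and Ccr1 values was not tested. For the library labelled CKO+RI over Flox+RI 1 of 4 genes was higher by 2-fold and none lower (9.74% and 7.92% of genes). For Flox+RI over Flox+ICI 2 were higher and none lower (6.85% and 7.89%).

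**Figure D4:**
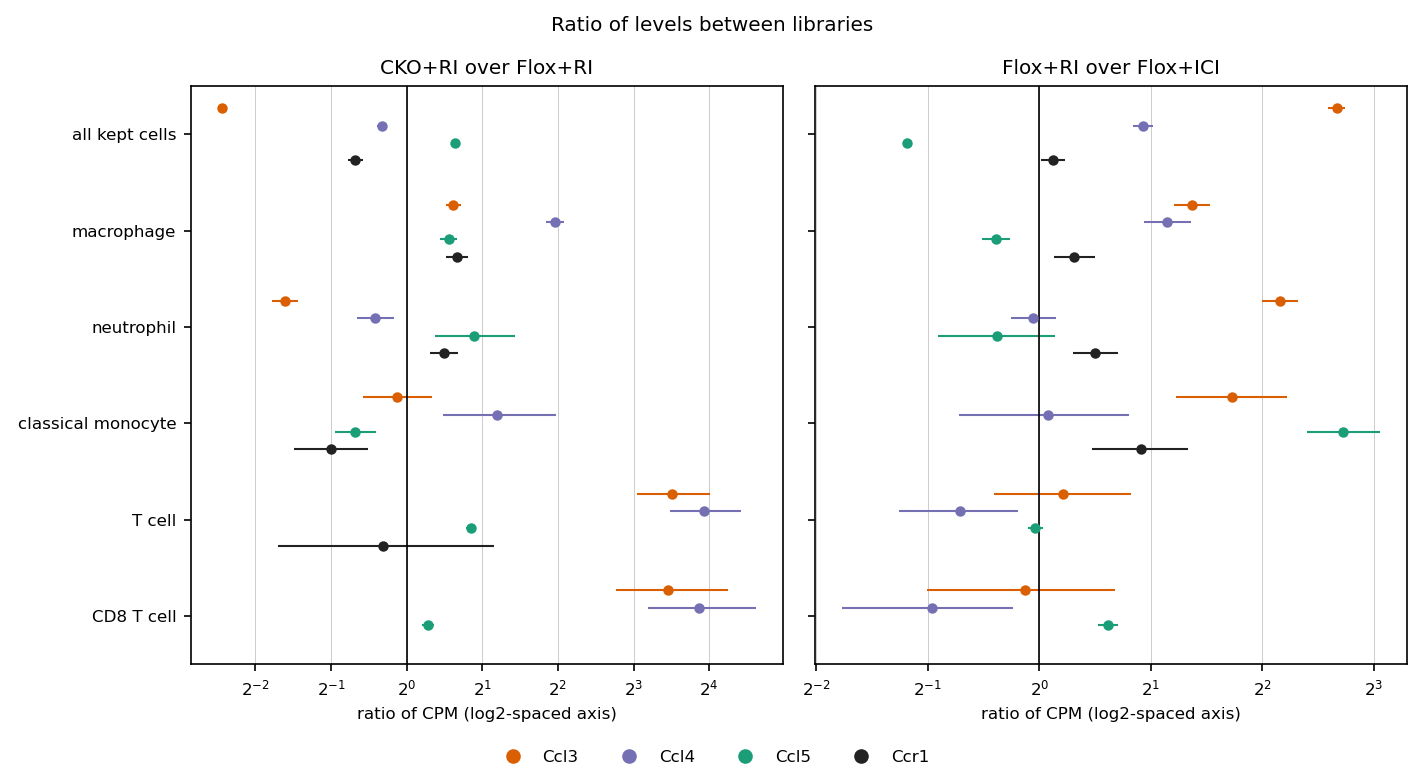
Ratio of CPM between libraries (log2-spaced axis) for each gene in all kept cells and in 5 gated classes, with exact conditional 95% intervals as bars. Ccl3 of the library labelled CKO+RI over Flox+RI was 0.184 over all kept cells and 0.328 in neutrophils but 1.54 in macrophages and 11 in CD8 T cells, and both panels share Flox+RI.

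Low levels of the ligands in cells that should not make them differed between libraries. In tumour-gated cells Ccl3 was at 3.29 CPM in the library labelled CKO+RI, 16.3 CPM in Flox+RI and 1.89 CPM in Flox+ICI, and Ccl4 at 3.43, 5.05 and 1.69 CPM. In the gate of alveolar type 2 cells, which make surfactant, Ccl3 was at 7.40, 77.0 and 5.12 CPM, but 37 of its 47 UMIs in Flox+RI lay in 12 cells of cluster 21. Without that cluster it was at 7.40 CPM (3.55 to 13.6), 16.6 CPM (7.98 to 30.6) and 5.12 CPM (2.06 to 10.5), with overlapping intervals. No tumour-gated cell lay in cluster 21. B cells of Flox+RI (63 cells) had 5 UMIs of Ccl3 (53.3 CPM) and erythroid cells of the library labelled CKO+RI (218 cells) 5.57 CPM. The Ccl3 level of tumour-gated cells was thus higher in Flox+RI than in the other 2 libraries, and the part of such a background in the values of other classes was not tested. UMIs of Ccl3 per UMI of Ccl4 were 0.959, 3.23 and 1.12 in the tumour gate and 0.848, 3.67 and 1.10 over all kept cells. In CD8 T cells they were 0.714 (0.652 to 0.781), 0.944 (0.457 to 1.94) and 0.529 (0.374 to 0.740), in macrophages 0.768, 1.94 and 1.67, and in neutrophils 1.55, 3.55 and 0.767. The CD8 T cells of Flox+RI therefore did not hold the genes in the ratio of the whole library. Ccl5 in tumour-gated cells was at 20.7, 15.4 and 18 CPM and Ccr1 at 0.962, 0.847 and 0.451 CPM. In alveolar type 2 cells without cluster 21 Ccl5 differed more, at 14.8 CPM (9.04 to 22.9), 6.65 CPM (1.81 to 17.0) and 83.3 CPM (68.7 to 100). The Flox+ICI value was above the 62.2 CPM of classical monocytes of that library.

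In macrophages and neutrophils Ccl3 and Ccl4 were found in the same cells more often than the product of their shares, though the macrophages of Flox+ICI gave 1 such cell. In macrophages thinned to 500 UMIs, 20 of 588 cells from the library labelled CKO+RI, 26 of 1604 from Flox+RI and 1 of 871 from Flox+ICI held both, which was 2.94, 2.42 and 1.35 times the product. In neutrophils the same quotient was 5.73, 2.95 and 4.99. Of the 27 CD8 T cells with Ccl3 in the library labelled CKO+RI, 18 also held Ccl4, whereas 0 of 131 CD8 T cells of Flox+RI, 4 with Ccl3 and 5 with Ccl4, and 2 of 241 of Flox+ICI held both. None of 700 classical monocytes of Flox+ICI held both. In cluster 21 of Flox+RI, where 1795 of 2612 cells held Ccl3, the quotient was 1.25. Within cluster 11 alone it was 2.53, 2.78 and 2.54 in the library labelled CKO+RI, Flox+RI and Flox+ICI.

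Other CC chemokine ligands were mostly higher in the library labelled CKO+RI than in Flox+RI in macrophages, and also in tumour-gated cells. In macrophages 10 of 14 listed ligands were measured, 6 of them higher by 2-fold and 1 lower. Their median log2 ratio was 1.66 against 0.11 over all genes. The monocyte and lymphocyte attractant Ccl8 stood at 2340 CPM in the library labelled CKO+RI and 358 CPM in Flox+RI (ratio 6.54), Ccl17, a ligand of Ccr4, at 14.6 and 0.833 CPM (17.5), and the eosinophil attractant Ccl24 at 11.4 and 87.1 CPM (0.131). Set over Flox+ICI, Flox+RI had 9 measured, 1 higher and 1 lower, with a median of 0.46 against -0.10, and the ratios of Ccl24, Ccl7 and Ccl8 were 15.1, 1.87 and 0.565. Ccl6 and Ccl9, further ligands of mouse Ccr1 that were picked out after their values were seen, stood at 3417, 2016 and 1462 CPM and at 907, 815 and 508 CPM in macrophages of the library labelled CKO+RI, Flox+RI and Flox+ICI. In tumour-gated cells 5 of 9 measured ligands were higher and 1 lower for the library labelled CKO+RI over Flox+RI (median 1.03). In T cells 3 of 6 were higher (0.96) and in neutrophils 1 of 7 (0.56), with none lower in either. Classical monocytes went the other way, with 1 of 8 higher and 3 lower (-0.70). The part of background in the macrophage values was not tested. Of the 12 other CC and atypical receptors only Ccrl2, which binds chemerin without signalling, was measured in neutrophils, at 126, 758 and 356 CPM.

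Early targets of NF-kB and TNF, which are induced together with Ccl3 and Ccl4 in activated myeloid cells, were lower in the neutrophils of the library labelled CKO+RI. Of 16 listed genes 15 were measured, 10 of them lower by 2-fold than in Flox+RI and none higher, also without cluster 21, where 10.9% of all genes were lower, with a median log2 ratio of -1.24 against -0.17 over all genes. The adhesion molecule Icam1 was at 86.9 CPM in the library labelled CKO+RI and 623 CPM in Flox+RI, the cytokine Tnf at 142 and 793 CPM and the TNF receptor adaptor Traf1 at 20.5 and 108 CPM. Neutrophils of Flox+RI had 4 of 15 higher than those of Flox+ICI and none lower, where 17.6% of all genes were higher, with a median of 0.50 against 0.35, and the ratios of Traf1, Bcl2a1b and Ptgs2 were 3.38, 2.54 and 2.15. Bcl2a1b has near-identical copies, and its counts are uncertain. In macrophages 1 of 16 was higher and 2 were lower in the library labelled CKO+RI than in Flox+RI (median -0.35). The dendritic and B cell activation marker Cd83 had a ratio of 3.29, Icam1 0.402 and Tnf 0.484 there, while Ccl4 had 3.88. None of the 16 was past 2-fold in macrophages for Flox+RI over Flox+ICI. Classical monocytes shared the direction of neutrophils for the library labelled CKO+RI over Flox+RI. In them 11 of 16 were lower and none higher (7.92% and 9.74% of all genes), with a median of -1.20 against 0.08. Their Ccl3 ratio without cluster 21 was 0.930 (0.680 to 1.29). The shares of clusters 10 and 11 in the neutrophil gate moved with the neutrophil values, and the part of these shares was not tested.

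A part of the cytotoxic granule genes of CD8 T cells had higher levels, as Ccl3 and Ccl4 did, for the library labelled CKO+RI over Flox+RI. Of 10 genes, all measured, 3 were higher by 2-fold in the library labelled CKO+RI and none lower, against 10.9% and 6.8% of all genes, with a median log2 ratio of 0.34 against 0.06 over all genes. The pore-forming protein Prf1 was at 332 CPM in the library labelled CKO+RI and 48.8 CPM in Flox+RI, the protease Gzmb at 706 and 186 CPM and the granule protein Nkg7 at 2629 and 1252 CPM. For Flox+RI over Flox+ICI 3 were lower and none higher (9.88% and 3.64% of all genes, median -0.59 against -0.13), with ratios of 0.339 for Prf1, 0.401 for Gzma and 0.459 for Gzmb. Of 10 T cell activation genes 9 were measured, with 4 higher and 2 lower in the library labelled CKO+RI than in Flox+RI (median 0.19), read against the same shares of all genes. The transcription factor Irf8 had a ratio of 12.8 (3.47 to 107), the costimulatory receptor Tnfrsf9 3.76 and the nuclear receptor Nr4a3 0.310. None of the 9 was higher and 3 were lower for Flox+RI over Flox+ICI (median -0.12). Irf8 had a ratio of 0.074 and Tnfrsf9 0.264, and the chemokine Xcl1, with 1 UMI in Flox+RI and 71 in Flox+ICI, had 0.0417 (0.00104 to 0.240). Granule genes also passed 2-fold outside T cells for the library labelled CKO+RI over Flox+RI. In tumour-gated cells 5 of 9 measured were higher and 1 lower (median 1.12). In macrophages 3 of 5 were higher (1.18) and in neutrophils 2 of 4 (1.68), with none lower in either. Classical monocytes had 1 of 3 higher and none lower (-0.14). Ungated cells went the other way, with none of 10 higher and 2 lower (-0.46). The part of background in the CD8 values was not tested.

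Among macrophages, neutrophils and CD8 T cells, genes induced by tissue dissociation mostly passed 2-fold in shares near those of all genes. The exceptions among these were macrophages for the library labelled CKO+RI over Flox+RI and CD8 T cells for Flox+RI over Flox+ICI. In macrophages 4 of 15 were higher and 1 lower in the library labelled CKO+RI than in Flox+RI (6.53% and 8.7% of all genes), with ratios of 3.55 for Hspa1b, 3.34 for Hspa1a and 0.207 for Egr1. In CD8 T cells 2 of 15 were higher and 1 lower (10.9% and 6.8% of all genes), with 9.90 for Hspa1a, 9.52 for Hspa1b and 0.386 for Fos. Hspa1a and Hspa1b are near-identical heat shock genes, and the split of their counts is uncertain. In neutrophils 1 of 15 was lower (Egr1, 0.451) and none higher, against 10.9% and 5.1% of all genes. For Flox+RI over Flox+ICI 3 of 15 were higher there (Jun 3.08, Egr1 2.55 and Atf3 2.02) and none lower, against 17.6% and 4.6%. The same comparison gave 1 of 15 higher in macrophages (3.53% of all genes) and 4 of 14 higher in CD8 T cells (3.64%), and none lower in either. Median log2 ratios of these 2 classes were 0.64 and 0.78, against -0.10 and -0.13 over all genes. Tumour-gated cells had 5 of 15 higher for the library labelled CKO+RI over Flox+RI (4.43% of all genes). Their median log2 ratio was 0.72 against -0.03 over all genes. Classical monocytes had 4 of 15 higher (9.74%, median 0.15) and the whole T cell gate 3 of 15 (6.18%, median 0.43). Each of these classes had 1 lower. Ungated cells had 2 of 15 higher and 5 lower (median -0.23). The part of dissociation in the values of Ccl3 and Ccl4 was not tested.

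Across 34 combinations of class and library with at least 50 cells, the pattern of each gene was set beside that of 13833 genes by Spearman's rho, as a description of points that share libraries and depth. Ccl4 was the gene most like Ccl3 (0.836), followed by Cyth4 (0.819), Ubl5 (0.819), Ncf4 (0.792) and Ppp1r3b (0.792). Fgd3 (0.874), Cd37 (0.846), Cd52 (0.837), Hcst (0.836) and Ccl3 (0.836) were most like Ccl4. For Ccl5 they were Ctsw (0.829), AW112010 (0.809), Fam78a (0.780), Ccr2 (0.778) and Klrk1 (0.767). Tarm1 (0.850), Il1rn (0.843), Clec5a (0.825), Fpr1 (0.822) and Tnni2 (0.810) were most like Ccr1.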

How the data were processed

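The deposited UMI counts per gene and cell of 3 libraries, 1 per group, were used as the authors gave them. Per the submitters' processing notes Cell Ranger 6.0, Seurat 5.0.3 and mm10 (GRCm38) were used, and per the file headers Cell Ranger 6.1.2 wrote the matrices. Barcodes in the files had at least 500 UMIs. Those under 200 genes or over 20% mitochondrial UMIs were dropped, and of the rest the barcodes with the highest Scrublet scores (0.8% per 1000 barcodes, 2935 in all) were removed as doublets (scanpy 1.11.5, Python 3.11.15), which left 29866 of 33482. A gate needed UMIs of at least 3 markers and of 30% of a class's markers, and a lead of 10 percentage points over the next class. Its thresholds and the clustering (2000 variable genes, 30 principal components, 15 neighbours, Leiden resolution 2.0, 32 clusters) were set after the data, and for the gate several settings and their shares of the genes described, had been seen. The genes and lists were chosen with earlier results of these data known.

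UMIs were summed per class and library as counts per 1000000 (CPM). Poisson intervals for levels, Clopper-Pearson intervals for shares and conditional binomial intervals for ratios, all exact at 95% (scipy 1.17.1), cover counting error only, and PCR or cell-to-cell spread is not in them. Nothing in the labels says how many animals stand behind a library. Classes with at least 50 cells in a library were described. Genes with at least 20 UMIs in both libraries of a comparison together were measured, and a ratio past 2-fold was counted as higher or lower. Named genes were the 4 genes, the 5 most like each by Spearman's rho of log2(CPM + 10) among genes with at least 100 UMIs, and the 3 of each list with the ratio farthest from 1 and at least 50 UMIs. Ratio intervals, thinning, the gate and the likeness ranks were tested on simulated data. The alternatives were doublets kept, at most 10% mitochondrial UMIs, cells thinned to 500 UMIs, clusters as classes, equal cell weight, scaling to the median of all genes, leaving out the 1% of cells highest in the gene and 1 more marker, and, added after the data were seen, a looser gate (25%, lead of 5 points) and leaving out cluster 21, over all cells and within classes. Positions are from GENCODE vM21 on GRCm38. Some items are not reported here.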

Additional observations from a re-analysis of the deposited data

Results flagged for a closer look

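Cell classes went opposite ways under the same comparison for each of the 4 genes, with intervals of counting error that left out 1 on both sides. The differences between classes were not tested, since each group was 1 library. For the library labelled CKO+RI over Flox+RI, the lowest and highest ratios among macrophages, neutrophils, classical monocytes and T cells were 0.328 in neutrophils and 11.4 in T cells for Ccl3, and 0.751 in neutrophils and 15.3 in T cells for Ccl4. Without cluster 21 the Ccl4 ratio of neutrophils was 1.03 (0.850 to 1.24), so its interval held 1. They were 0.624 in classical monocytes and 1.86 in neutrophils for Ccl5, and 0.500 in classical monocytes and 1.59 in macrophages for Ccr1. For Flox+RI over Flox+ICI they were 0.611 in T cells and 2.21 in macrophages for Ccl4, and 0.764 in macrophages and 6.62 in classical monocytes for Ccl5. In the library labelled CKO+RI the monocyte value of Ccl5 rested on few cells outside cluster 13. In Flox+RI clusters 31 and 18 held 97 and 63 of its 182 UMIs, in 45 and 34 gated cells. In Flox+ICI cluster 13 held 88 of 136.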

How the results depend on the processing

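With 1 library per group, exact intervals cover counting error only, and depth limits the rarer classes: Ccr1 of CD8 T cells and all 4 genes of the NK cells of Flox+RI rested on too few UMIs or cells for a ratio. No paired analysis was possible because each group is 1 library with no replicate to share a number or to leave out. Of 56 alternative values of ratios over all kept cells whose interval left out 1, 53 kept their direction, and within classes 319 of 332 did. The cause of a change was not tested unless the alternative's own construction shows it.

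Ratios over all kept cells are given for Ccl3, Ccl4, Ccl5 and Ccr1 of the library labelled CKO+RI over Flox+RI and then of Flox+RI over Flox+ICI. With cells thinned to 500 UMIs they were 0.0700, 0.366, 1.74 and 0.674, and then 10.4, 2.71 and, for Ccr1, 1.56. With every cell given the same weight they were 0.0815, 0.391, 1.71 and 0.578, and then 10.5, 2.52 and, for Ccr1, 1.61. Without the 1% of cells highest in the gene they were 0.107, 0.488, 1.72 and 0.570, and then 10.7 for Ccl3, 2.69 for Ccl4 and 0.342 for Ccl5. Relative to the median of all genes, those of Flox+RI over Flox+ICI were 7.77, 2.33, 0.537 and 1.33, and with doublets kept that of Ccl5 was 0.453. Without cluster 21, an alternative added with the data in view, Ccl3 was at 0.595 and 2.40 and Ccr1 at 0.736, while the direction turned for Ccl4 in both (1.64 and 0.992) and for Ccr1 of Flox+RI over Flox+ICI (0.935).

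Within classes the direction turned for Ccr1 of neutrophils (0.952) and Ccl5 of CD8 T cells (0.992) of the library labelled CKO+RI over Flox+RI with doublets kept. It turned for Ccl5 of classical monocytes (1.08 and 0.964) with clusters as classes, with or without cluster 21. With cluster 21 counted as neutrophils the Ccr1 ratio of neutrophil clusters of Flox+RI over Flox+ICI turned (0.866), and without it it did not (1.52). Leaving out cluster 21 turned Ccl4 of neutrophils of the library labelled CKO+RI over Flox+RI (1.03 gated and 1.21 with clusters as classes). Equal cell weight turned Ccl3 of macrophages (0.940), and leaving out the 1% of cells highest in the gene turned Ccl5 of neutrophils (0.990), both of the library labelled CKO+RI over Flox+RI, and Ccl4 of T cells of Flox+RI over Flox+ICI (1.29). Relative to the median of all genes, Ccl5 of tumour-gated cells of Flox+RI over Flox+ICI was at 1.0.

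Shares held by the leading gated class moved as follows. With clusters as classes, macrophages of the library labelled CKO+RI held 49.1% of Ccl4 and 48.2% of Ccr1 and T cells 54.1% of Ccl5. In Flox+RI macrophages held 25.4% of Ccl4 and 50.2% of Ccr1 and T cells 48.7% of Ccl5. In Flox+ICI neutrophils held 45.3% of Ccl3 and 48.8% of Ccl4 and T cells 46.3% of Ccl5. Clusters given the neutrophil name, cluster 21 among them, then led in Flox+RI with 76.7% of Ccl3 and 60.3% of Ccl4. With doublets kept T cells held 48.6%, 32.6% and 34.2% of Ccl5 in the library labelled CKO+RI, Flox+RI and Flox+ICI, and with 1 more marker required they held 29.5% in Flox+RI and 32.6% in Flox+ICI. A looser gate, also chosen after the data were seen, gave macrophages of Flox+RI 19.6% of Ccl3, 29.2% of Ccl4 and 45.9% of Ccr1 and T cells 38.0% of Ccl5, and gave neutrophils of Flox+ICI 31.8% of Ccl3 and 43.2% of Ccl4 and T cells 40.4% of Ccl5. In Flox+ICI with doublets kept, macrophages (26.2%) and neutrophils (26.0%) changed places for Ccl3. At most 10% mitochondrial UMIs changed no direction.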

Other observations

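Migratory dendritic cells, which carry antigen to lymph nodes, also held Ccl5, although each library had fewer than 50 of them. Ccl5 was at 3662 CPM (3456 to 3877) in 30 cells from the library labelled CKO+RI, 1663 CPM (1483 to 1859) in 48 cells of Flox+RI and 423 CPM (309 to 566) in 12 cells of Flox+ICI. These cells held 5.73%, 3.92% and 0.329% of the Ccl5 UMIs of those libraries. The 15 NK cells of Flox+RI had Ccl5 at 21746 CPM (19505 to 24174), Ccl4 at 761 CPM (393 to 1329) and Ccl3 at 634 CPM (304 to 1166).

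Alveolar macrophages, the resident macrophages of the air spaces, had lower levels of Ccl3, Ccl4 and Ccr1 than the macrophage gate of the same library. In 136 cells from the library labelled CKO+RI Ccl3 was at 105 CPM (80.9 to 134), Ccl4 at 22.6 CPM (12.3 to 37.9) and Ccr1 at 46.8 CPM (31.3 to 67.2). In 246 cells of Flox+ICI Ccl3 was at 44.3 CPM (30.3 to 62.5), Ccl4 at 9.69 CPM (3.89 to 20) and Ccr1 at 27.7 CPM (16.9 to 42.7). Ccl5 of endothelial cells was at 115 CPM in the library labelled CKO+RI, where 1 cell held 92 of 111 UMIs, 18.6 CPM in Flox+RI and 80.8 CPM in Flox+ICI. Ccr1 had 0 UMIs in the fibroblast gate of all 3 libraries (112, 38 and 173 cells), where 3 UMIs would have been 4.32, 9.69 and 6.57 CPM.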
